A study of Mus musculus with 10 samples.

Results

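The genes described here are 40 genes of the cell cycle and of DNA replication. They were listed by symbol, with earlier results of these data known. Their mouse Ensembl identifiers were looked up among the 52636 rows of a gene count table. All 40 were present, and all 40 passed the filter on low counts, so that each was tested. They were read in 10 melanoma tumours of mice. In 6 tumours the genotype was BrafCA;Cdkn2af/f; Arf6Q67L, and in 4 control tumours it was BrafCA;Cdkn2af/f. BrafCA is an allele that makes oncogenic BRAF after Cre recombination, Cdkn2af/f is the floxed locus of the tumour suppressors p16INK4a and p19ARF, and Arf6Q67L encodes constitutively active ARF6, a small GTPase of membrane traffic. Both groups therefore carry the Braf and Cdkn2a alleles and differ in Arf6Q67L. The labels do not give the driver of Cre, the age or sex of the animals, or the number of animals behind the tumours, so p-values measure the spread between these tumours. The comparison is of expression with and without the active ARF6 allele.

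A dividing cell first licenses its replication origins by loading the MCM helicase with CDC6 and CDT1, then copies its DNA in S phase, and later condenses and parts its chromosomes in mitosis. Genes needed for S phase are switched on by E2F factors at the end of G1, when cyclin-dependent kinases inactivate the RB protein. Genes needed for mitosis are switched on later by B-MYB and FOXM1 through the MuvB complex, which binds a short promoter element named CHR (cell cycle genes homology region). In melanoma the p16INK4a protein of the Cdkn2a locus restrains the first of these steps, and the BRAF-ERK pathway drives it by way of cyclin D. The 40 genes were split by textbook role into an S-phase class of 18 (cyclin E, CDK2, E2F1 and E2F2, the MCM helicase, licensing, nucleotide supply and the clamp PCNA) and a mitotic class of 21 (from cyclin A2 and cyclin B to spindle motors, Mki67 and Top2a). Mybl2, which encodes B-MYB, is made with the S-phase genes and acts on the mitotic ones, and was put in neither class.

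Promoter windows show how the classes differ in sequence. RefSeq windows on GRCm38.p6, from 250 bases before to 50 bases after the start site, were found for 32 of the 40 members, of which 15 were S-phase and 16 mitotic, and 2 members had more than 1 window. The motifs searched, on both strands, were CHR (TTTGAA or TTCGAA), E2F (TTTCGCGC, TTTGGCGC, TTCCCGCC or TTTCCCGC, which may overlap one another) and the CCAAT box (CCAAT). The 160 bases before the start of 4 mitotic members are shown because each holds a CHR match close to its start, and those of 4 S-phase members because each holds an E2F match. Capitals mark CHR matches (6 bases) and E2F matches (8 bases, or a longer run where matches overlap), and each sequence reads 5′ to 3′ along the gene's strand.
Cdk1 (chr10:69352913-69353072, minus strand): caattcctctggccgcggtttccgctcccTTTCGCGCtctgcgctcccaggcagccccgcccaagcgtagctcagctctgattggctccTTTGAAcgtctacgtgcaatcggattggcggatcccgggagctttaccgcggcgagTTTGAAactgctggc
Cdc20 (chr4:118437344-118437503, minus strand): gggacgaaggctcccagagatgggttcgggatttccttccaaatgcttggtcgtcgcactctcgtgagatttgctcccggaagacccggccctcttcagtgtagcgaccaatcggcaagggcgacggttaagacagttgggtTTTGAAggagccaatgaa
Kif11 (chr19:37376222-37376381, plus strand): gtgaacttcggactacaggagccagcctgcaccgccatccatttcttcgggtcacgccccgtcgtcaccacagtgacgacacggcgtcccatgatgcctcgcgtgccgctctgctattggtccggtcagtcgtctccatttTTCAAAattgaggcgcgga
Top2a (chr11:99024190-99024349, minus strand): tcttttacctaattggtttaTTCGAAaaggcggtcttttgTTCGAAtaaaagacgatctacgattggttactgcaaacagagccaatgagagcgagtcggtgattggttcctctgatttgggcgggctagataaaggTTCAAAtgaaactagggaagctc
Mcm5 (chr8:75109349-75109508, plus strand): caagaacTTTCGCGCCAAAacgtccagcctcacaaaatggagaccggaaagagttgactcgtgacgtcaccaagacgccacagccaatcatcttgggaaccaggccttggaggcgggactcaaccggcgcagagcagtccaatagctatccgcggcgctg
Mcm6 (chr1:128359706-128359865, minus strand): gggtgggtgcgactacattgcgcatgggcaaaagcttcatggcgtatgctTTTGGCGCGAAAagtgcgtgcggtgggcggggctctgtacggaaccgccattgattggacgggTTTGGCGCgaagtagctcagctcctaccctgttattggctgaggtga
Rrm1 (chr7:102441535-102441694, plus strand): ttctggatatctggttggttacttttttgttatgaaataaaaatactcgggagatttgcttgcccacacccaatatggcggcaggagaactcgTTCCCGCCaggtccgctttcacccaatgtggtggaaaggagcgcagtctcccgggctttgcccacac
Cdk2 (chr10:128705052-128705211, minus strand): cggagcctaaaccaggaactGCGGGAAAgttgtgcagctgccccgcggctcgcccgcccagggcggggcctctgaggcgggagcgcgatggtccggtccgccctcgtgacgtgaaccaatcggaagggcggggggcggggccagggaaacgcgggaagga

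A CHR match was found in 13 of 16 mitotic members and 3 of 15 S-phase members, against 21.7% of all 27025 genes with a window and 19.2% of all 32851 windows. An E2F match was found in 9 of 15 S-phase members and 1 of 16 mitotic members, that of the mitotic kinase gene Cdk1, against 4% of all genes and 3.49% of all windows. The CCAAT box was held by 15 of 16 mitotic and 10 of 15 S-phase members, against 41.1% of genes and 37.4% of windows. The mitotic members with no CHR match in the window were Birc5, Ccnb1 and Cenpe. The S-phase members with no E2F match in the window were Ccne1, E2f1, Mcm2, Pcna, Rrm2 and Tyms. S-phase members with a CHR match were Mcm2, Mcm7 and E2f2. A match is a string of letters and does not show that a factor binds there.

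**Figure D1:**
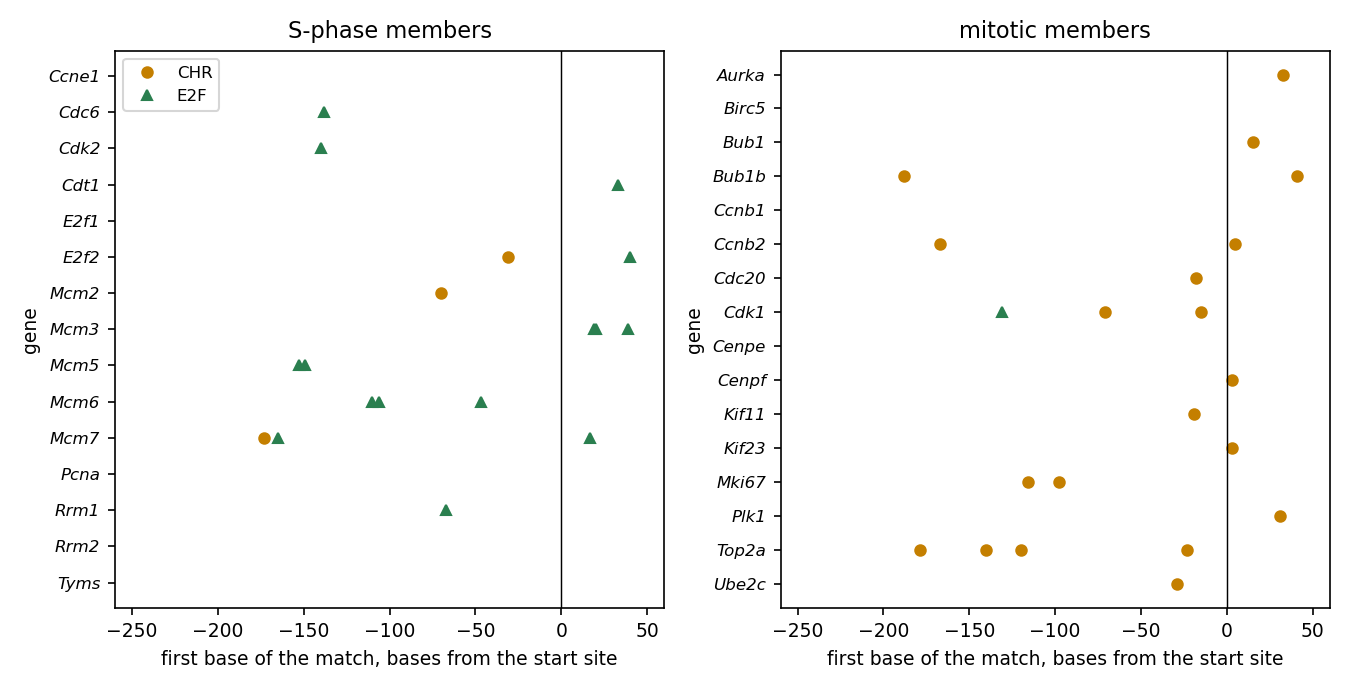
Distance of each CHR match (circles) and E2F match (triangles) from the start site in bases, for the 15 S-phase members (left) and the 16 mitotic members (right) with a promoter window; the vertical line is the start site. CHR matches lie in 13 of 16 mitotic members and E2F matches in 9 of 15 S-phase members.

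Total counts lay between 28635414 and 40869091 per tumour. The lowest count of any member was 211, for Cdc25c in Arf6Q67L tumour 3, and the highest was 12732, for Top2a in control 4. Levels are given in CPM, a gene's counts relative to the library size after TMM scaling, which corrects for differences in RNA composition. Arf6, the engineered gene, ran from 74.7 to 130.1 CPM in Arf6Q67L tumours and from 68.6 to 106.5 CPM in controls, so its level did not separate the labels, and counts hold no information on its base change. Of 7 melanocyte markers, Tyr and Dct had 0 counts in all 10 tumours, which allows at most 0.0734 to 0.105 CPM by counting error alone. Tyrp1 reached at most 0.0521 CPM, Mlana 0.101 CPM, Pmel 0.940 CPM and Sox10 2.83 CPM, so that Mitf, at 11.1 to 26.1 CPM, was the only one above 3 CPM in tumours labelled melanoma. Xist and Ddx3y marked 3 female and 3 male Arf6Q67L tumours and 1 female and 3 male controls. Control 4 stood farthest from the other tumours on the first principal component and had the highest summed level of 6 T cell markers (261 CPM) and of 5 macrophage markers (2298 CPM). In these bulk samples fewer dividing cells and less RNA per dividing cell cannot be told apart.

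No member differed between genotypes beyond the spread between tumours. In edgeR's quasi-likelihood test 0 of 40 members were past an adjusted p of 0.05, where 0% of the 17286 genes tested were. At an unadjusted p under 0.05, 0 of 40 members were counted, where 11.7% of all genes were (4.65% higher and 7.05% lower). DESeq2 called 0 of 40 members, where it called 2.5% of the 16545 genes to which it gave an adjusted p (1.01% higher and 1.49% lower), and limma-voom called 0 of 40, where it called 0.0116% (0.00579% higher and 0.00579% lower). In 0 of 40 members the groups did not overlap, where 2.44% of all genes had separate groups (1.15% higher and 1.28% lower). A positive log2 fold change (Arf6Q67L over control) was found for 24 of 40 members, where 49.7% of all genes were positive. The median over the members was 0.05, against -0.0018 over all genes tested.

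The size of a difference that these tumours leave possible was limited. For all 40 members the 95% interval of the log2 fold change spanned 0 and lay between -1 and 1, so a doubling or a drop of the same size was outside every interval taken singly. The lowest bound was -0.77, for E2f2, and the highest was 0.79, for Ccnb2. Intervals inside -0.5 to 0.5 were found for 12 S-phase members and 1 mitotic member, Cenpe. These intervals are not adjusted for the number of genes.

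**Figure D2:**
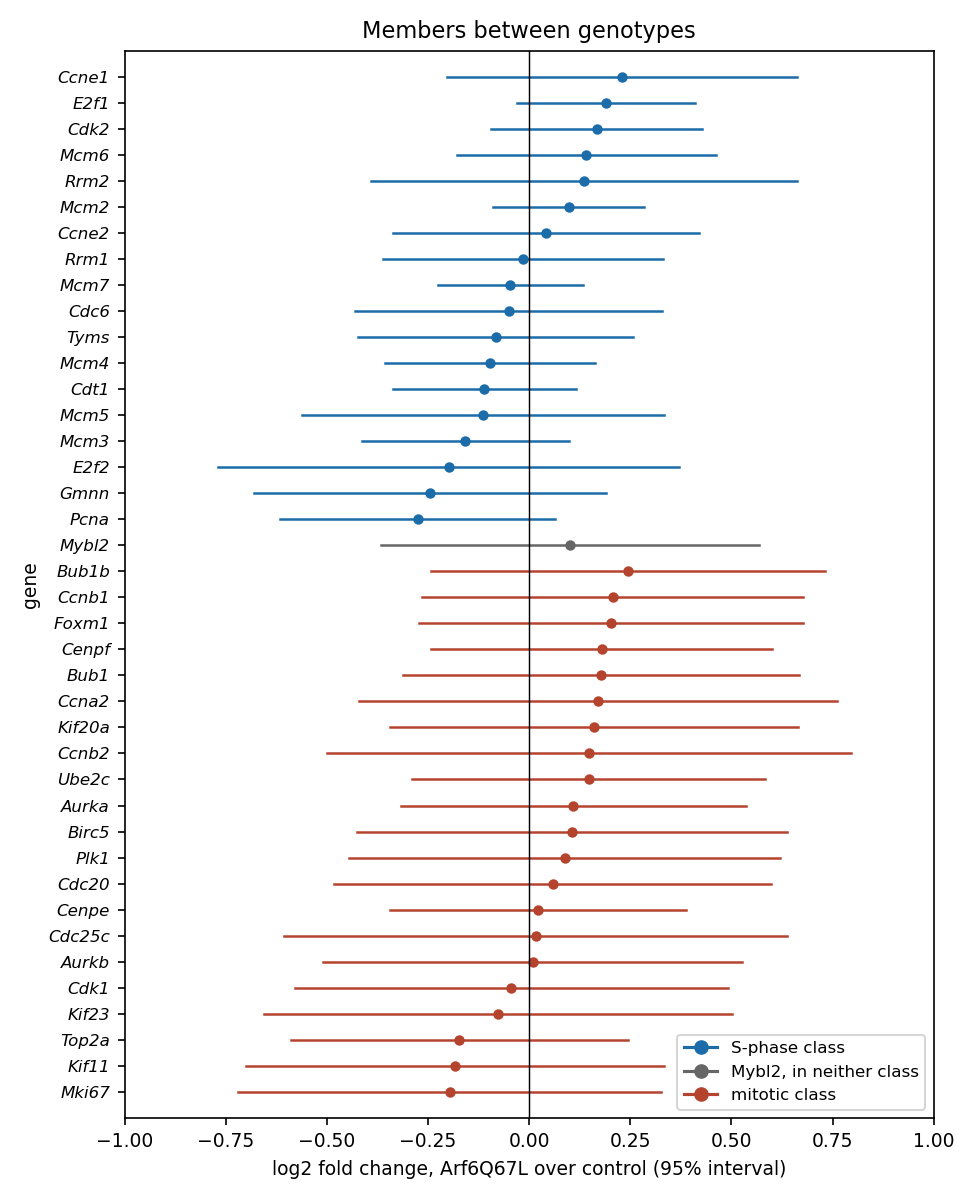
Log2 fold change of each of the 40 members, Arf6Q67L (6 tumours) over control (4 tumours), as points with 95% intervals from edgeR's quasi-likelihood fit; colour gives the class. Every interval crosses 0 and lies between -1 and 1, and 12 S-phase members and 1 mitotic member lie within -0.5 to 0.5.

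Among the S-phase transcription factors, E2f1 had the lowest unadjusted p of all 40 members. E2f1 encodes an activating E2F that RB holds in check. Its lowest, median and highest values were 36.7, 41.01 and 47.9 CPM in Arf6Q67L tumours, and controls 1 to 4 had 39.3, 36.1, 33.2 and 36.03 CPM. In 4 of 6 Arf6Q67L tumours E2f1 was above every control, and the groups overlapped. Its difference between genotypes was 0.19 on the log2 scale (SE 0.10, edgeR adjusted p = 0.483). The exact two-sided permutation p was 0.0619 (adjusted p over all genes 0.517), where the smallest value the design allows is 0.00476.

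E2f2, a second activating E2F, was the scarcest member per length, at 1.92 CPM per kilobase of summed exons. It ran from 6.09 to 13.8 CPM in Arf6Q67L tumours, with a median of 8.16 CPM, and had 8.98, 13.4, 8.74 and 9.43 CPM in controls 1 to 4. Its highest value was in Arf6Q67L tumour 3, the tumour in which 31 of the 40 members were at their lowest. Foxm1, whose product switches on mitotic genes, ran from 30.7 to 70.7 CPM in Arf6Q67L tumours with a median of 51.1 CPM, and had 36.9, 39.2, 45.4 and 55.8 CPM in controls. Between genotypes Foxm1 differed by 0.20 (log2, SE 0.21, edgeR adjusted p = 0.754), by 0.09 without Arf6Q67L tumour 6, 0.13 without control 1, 0.33 without Arf6Q67L tumour 3 and 0.34 without control 4. The control values lay inside the range of the Arf6Q67L tumours, whose lowest and highest were tumours 3 and 6.

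Mybl2 followed the same tumours. It ran from 7.18 to 16.7 CPM in Arf6Q67L tumours, with a median of 13.8 CPM, and stood at 11.7, 12.1, 11.1 and 14.5 CPM in controls. The log2 fold change was 0.10 (SE 0.21, edgeR adjusted p = 0.885), and it ranged from 0.03 without tumour 6 to 0.24 without tumour 3, with 0.06 without control 3 and 0.19 without control 4. Tumour 3 was the low end, tumours 1 and 6 were above every control, and the groups overlapped.

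The 6 MCM genes encode the ring-shaped helicase that unwinds DNA at origins. As a group they had 2 positive and 4 negative log2 fold changes, from -0.16 to 0.14, and the lowest edgeR adjusted p was 0.634, for Mcm3. Mcm3 ran from 53.3 to 71.2 CPM in Arf6Q67L tumours with a median of 62.1 CPM, and had 63.8, 67.3, 62.9 and 85.04 CPM in controls. In 3 of 6 Arf6Q67L tumours Mcm3 was below every control. The log2 fold change of -0.16 (SE 0.12) moved to -0.04 without control 4.

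Mcm2 was the steadiest of the 40 members, with a ratio of highest to lowest tumour of 1.25. It ran from 71.5 to 89.6 CPM in Arf6Q67L tumours, with a median of 82.04 CPM, and had 75.6, 82.4, 75.6 and 72.5 CPM in controls. The log2 fold change was 0.10 (SE 0.08, edgeR adjusted p = 0.698), with a 95% interval from -0.09 to 0.28. In Arf6Q67L tumour 3 Mcm2 stood at 77.5 CPM, inside the range of the other tumours, while Mcm3, Mcm5 and Mcm6 had their lowest values there. The subunits of 1 helicase thus did not share 1 order of tumours.

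Licensing genes were all negative between genotypes in edgeR. Cdc6 and Cdt1 load the helicase, and Gmnn encodes geminin, the inhibitor of CDT1. The 3 log2 fold changes ran from -0.25 to -0.05, where 49.7% of all genes were positive. For Cdc6 the value was -0.05 (edgeR adjusted p = 0.937) and 0.06 with limma-voom. Gmnn ran from 12.5 to 18.96 CPM in Arf6Q67L tumours, with a median of 17.01 CPM, and had 16.7, 15.8, 15.5 and 27.2 CPM in controls. Between genotypes Gmnn differed by -0.25 (log2, SE 0.20, edgeR adjusted p = 0.667), and by -0.0047 without control 4, the only control above all Arf6Q67L tumours.

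Pcna, the sliding clamp of DNA polymerases, was the most abundant member per length, at 56.7 CPM per kilobase. It ran from 107 to 143 CPM in Arf6Q67L tumours, with a median of 125.0 CPM, and had 133, 142, 124 and 209 CPM in controls. In 3 of 6 Arf6Q67L tumours it was below every control. The log2 fold change was -0.28 (SE 0.15, edgeR adjusted p = 0.520), and -0.07 without control 4. The other genes of this role make DNA precursors: Rrm1 and Rrm2 encode ribonucleotide reductase and Tyms encodes thymidylate synthase. Their log2 fold changes lay between -0.08 and 0.14.

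Cyclin E and its kinase start S phase. All 3 of their genes were positive between genotypes, from 0.04 for Ccne2 to 0.23 for Ccne1, where 49.7% of all genes were. Cdk2 ran from 43.4 to 58.6 CPM in Arf6Q67L tumours, with a median of 47.9 CPM, and had 39.7, 43.2, 41.6 and 51.9 CPM in controls. The groups overlapped, and the log2 fold change was 0.17 (SE 0.12, edgeR adjusted p = 0.621) and 0.26 without control 4. Ccne1 had 15.5, 15.8, 13.6, 27.3, 18.2 and 15.1 CPM in Arf6Q67L tumours 1 to 6 and 16.8, 13.1, 14.3 and 15.8 CPM in controls. Arf6Q67L tumour 4 stood apart, and the log2 fold change of 0.23 (SE 0.20, edgeR adjusted p = 0.693) was 0.06 without it.

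Of the 21 mitotic members 16 were positive and 5 negative between genotypes, at a median log2 fold change of 0.11, and 0 passed the test (edgeR adjusted p from 0.710 to 0.994). Leaving out control 4 moved this median to 0.26, and leaving out Arf6Q67L tumour 6 moved it to -0.02. Of the 18 S-phase members 7 were positive and 11 negative, at a median of -0.05, which became 0.03 without control 4. Of the mitotic members, the 4 checkpoint and anaphase genes (Bub1, Bub1b, Cdc20 and Ube2c) and the 4 genes of mitotic kinases and their passenger survivin (Aurka, Aurkb, Plk1 and Birc5) were all positive, from 0.0086 to 0.24. Both chromosome genes, Top2a and Mki67, were negative. Over all genes tested 49.7% were positive. Mitotic members moved together over the tumours (median Spearman rho 0.78 among their pairs), so these signs are not separate observations.

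Bub1b encodes BUBR1, which delays anaphase until every kinetochore is attached. It had 51.8, 67.0, 38.2, 63.6, 48.8 and 88.9 CPM in Arf6Q67L tumours 1 to 6 and 45.01, 48.5, 44.8 and 63.3 CPM in controls. The log2 fold change was 0.24 (SE 0.22, edgeR adjusted p = 0.710), the largest among mitotic members, and moved to 0.10 without Arf6Q67L tumour 6 and to 0.38 without control 4. Arf6Q67L tumours held both the lowest and the highest value.

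Ccnb1 and Cdk1 encode cyclin B1 and the kinase it activates to start mitosis. Ccnb1 ran from 58.8 to 117 CPM in Arf6Q67L tumours, with a median of 78.2 CPM, and had 67.8, 61.02, 60.2 and 95.8 CPM in controls. Between genotypes Ccnb1 differed by 0.21 (log2, SE 0.21, edgeR adjusted p = 0.747), by 0.08 without Arf6Q67L tumour 6, by 0.14 without control 3 and by 0.39 without control 4. Cdk1 ran from 70.1 to 179 CPM, with a median of 113.6 CPM, and had 111.5, 120.3, 99.8 and 147 CPM in controls. For Cdk1 the log2 fold change was -0.04 (SE 0.24, edgeR adjusted p = 0.963), with a sign that turned in 3 of 10 leave-one-out fits, with limma-voom and with sex as a term. For both genes the whole control range lay within that of the Arf6Q67L tumours.

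Cenpf encodes a kinetochore protein. It ran from 44.4 to 95.4 CPM in Arf6Q67L tumours, with a median of 65.1 CPM, and had 53.7, 58.8, 54.5 and 70.3 CPM in controls (log2 fold change 0.18, SE 0.19, edgeR adjusted p = 0.755). The fold change was 0.06 without Arf6Q67L tumour 6, 0.29 without tumour 3 and 0.28 without control 4. Here too the controls fell between the extremes of the other group.

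Mki67 encodes Ki-67, the protein stained to count cycling cells, and Top2a encodes the topoisomerase that untangles sister chromatids. Mki67 had 192, 214, 151, 196, 188 and 279 CPM in Arf6Q67L tumours 1 to 6 and 161, 219.7, 187 and 363 CPM in controls 1 to 4. The genotypes differed in Mki67 by -0.20 (log2, SE 0.23, edgeR adjusted p = 0.789), which became 0.11 without control 4. Top2a had 262, 270.0, 208, 305, 258 and 340.2 CPM in Arf6Q67L tumours and 252, 323, 232 and 427 CPM in controls. For Top2a the value was -0.17 (log2, SE 0.19, edgeR adjusted p = 0.762), which became 0.04 without control 4. The negative sign of both genes thus rests on 1 control, the one with the highest T cell and macrophage marker sums. The part of those cells in the difference was not tested.

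The spread of the members between tumours was near that of all genes tested. The median SD over mean was 23.35% for the members and 24.84% for all genes. Arf6Q67L tumour 3 had the lowest value of 21 of 21 mitotic members and of Mybl2. Arf6Q67L tumour 6 had the highest value of 15 mitotic members, control 4 of 5 (Mki67, Top2a, Kif11, Kif23 and Aurkb), and control 1 of Cdc20. Ccnb2, which encodes cyclin B2, had the widest ratio of highest to lowest tumour of all members (3.46), from 24.5 CPM in Arf6Q67L tumour 3 to 84.7 CPM in tumour 6. The median ratio was 2.33 over the mitotic class and 1.7 over the S-phase class, against 2.17 over all genes tested that had counts in every tumour.

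**Figure D3:**
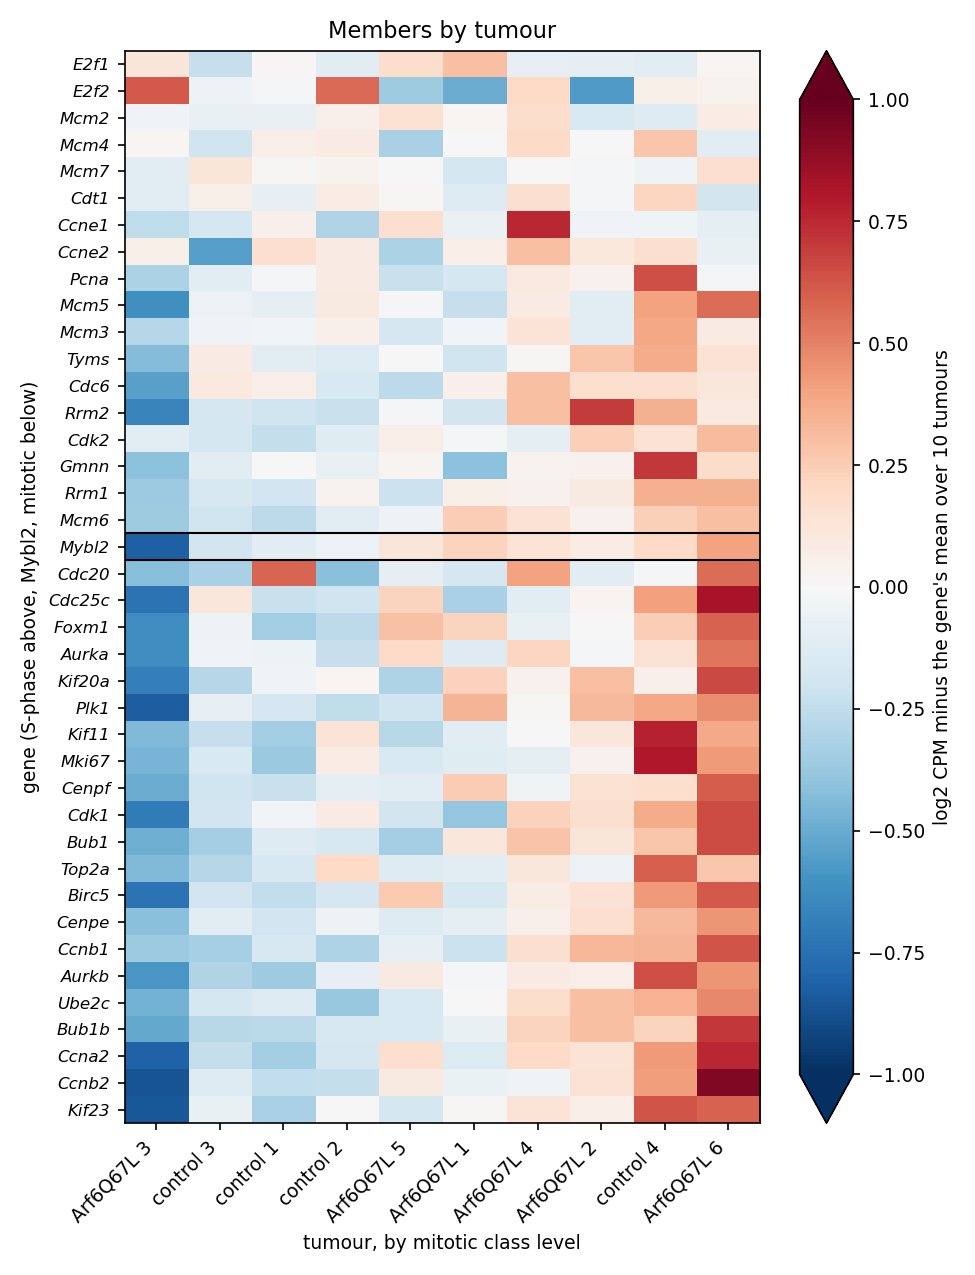
Each member's log2 CPM minus its own mean over the 10 tumours (colour, red above and blue below the mean), with genes in rows and tumours in columns ordered by the mean level of the mitotic class. The mitotic rows run from blue in Arf6Q67L tumour 3 to red in control 4 and Arf6Q67L tumour 6, while E2f1, E2f2 and Mcm2 do not follow this order.

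S-phase members were less uniform. Arf6Q67L tumour 3 had the lowest value of 9 of 18, and the highest values were spread over control 4 (7 members), Arf6Q67L tumours 4 and 6 (4 members each) and tumours 1, 2 and 3 (1 member each). Over the 10 tumours the median Spearman rho was 0.78 among the 210 pairs of mitotic members, 0.48 among the 378 mixed pairs and 0.25 among the 153 pairs of S-phase members. These values are a description, since all pairs share the same 10 libraries and their scaling. Kif23, a motor of cytokinesis, had the highest median rho with the other members (0.79). E2f1 and E2f2 had the lowest, at -0.18 for each.

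Within each tumour the S-phase class was compared with the mitotic class by the mean log2 CPM of its members. The S-phase mean ran from 5.16 in Arf6Q67L tumour 3 to 5.60 in control 4, a 1.36-fold range. The mitotic mean ran from 5.19 in Arf6Q67L tumour 3 to 6.37 in tumour 6, a 2.26-fold range. These means are not corrected for gene length, so only their changes between tumours can be read.

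The S-phase minus mitotic difference was -0.45, -0.51, -0.03, -0.36, -0.43 and -0.89 in Arf6Q67L tumours 1 to 6, and -0.29, -0.29, -0.34 and -0.56 in controls 1 to 4. Tumour 3, lowest in both classes, had the smallest gap, and tumour 6 the widest. By genotype the difference was -0.44 ± 0.28 (SD, n = 6) in Arf6Q67L tumours and -0.37 ± 0.13 (SD, n = 4) in controls, and the controls lay inside the range of the Arf6Q67L tumours. The genotypes differed by -0.08, less than either SD. This difference was 0.01 without Arf6Q67L tumour 6, -0.16 without tumour 3, -0.05 without control 1 or control 2 and -0.14 without control 4. With sex as a term it was -0.14. In limma-voom the mean log2 fold change of the S-phase class minus that of the mitotic class was -0.12. No p is given, since the classes were formed with earlier results of these tumours known.

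**Figure D4:**
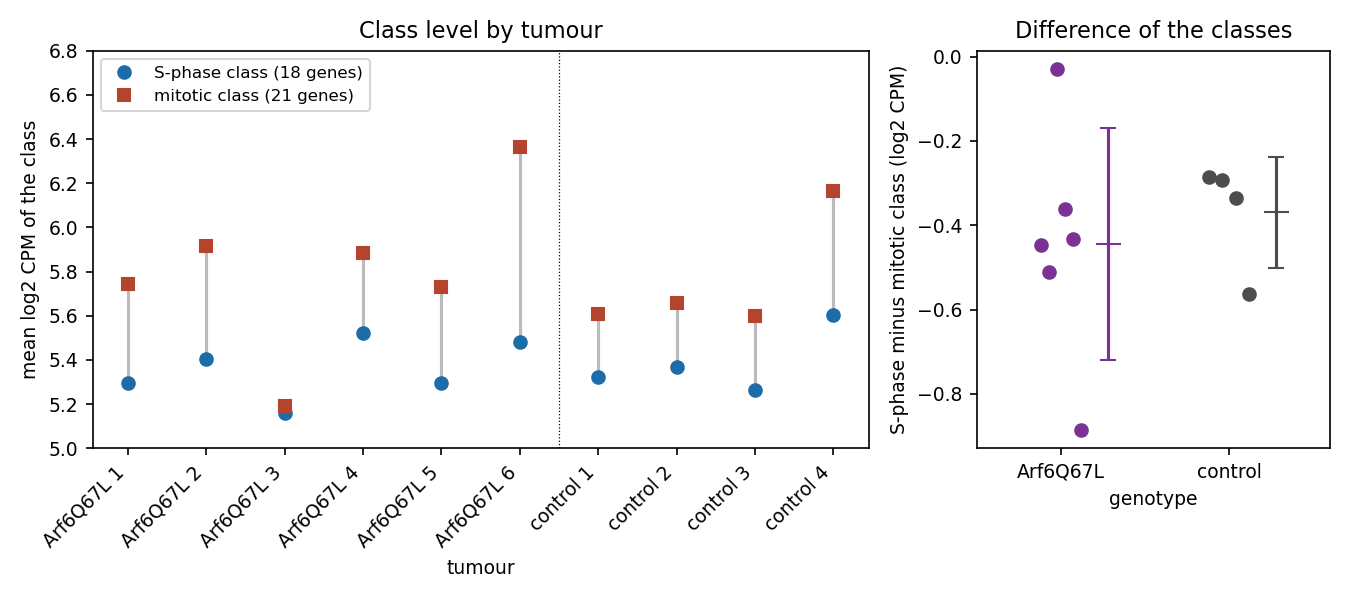
Left, mean log2 CPM of the S-phase class (circles, 18 genes) and the mitotic class (squares, 21 genes) in each tumour, joined by a line; right, S-phase minus mitotic difference per tumour (points) with mean and SD by genotype. The mitotic mean spans 5.19 to 6.37 and the S-phase mean 5.16 to 5.60, and the differences of the genotypes overlap.

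Marker sums of other cells are given beside these levels. Arf6Q67L tumour 6, with the highest mitotic mean, had a T cell sum of 37.1 CPM, a macrophage sum of 503 CPM, the lowest of all tumours, and a mast cell sum of 508 CPM over 4 markers, the highest. Control 4, second in mitotic mean, had 261, 2298 and 12.2 CPM for the same lists. Control 2 had the second highest T cell sum (184.5 CPM) and the seventh mitotic mean (5.66). T cell sums ran from 12.9 to 71.5 CPM in Arf6Q67L tumours and from 24.7 to 261 CPM in controls, and B cell sums did not exceed 4.43 CPM in any tumour. All 6 T cell and all 5 macrophage markers had negative log2 fold changes, with 0 of either list past edgeR's or DESeq2's adjusted threshold. Macrophage sums ran from 503 to 1087 CPM in Arf6Q67L tumours. Controls 1 and 3 lay inside the Arf6Q67L range for T cell sums (29.2 and 24.7 CPM) and macrophage sums (744.8 and 769.5 CPM). Controls 2 and 4 lay above it for both. All 4 mast cell markers had positive log2 fold changes (4 of 4 past DESeq2's adjusted threshold, where 2.5% of all genes were, and 0 past edgeR's). All 4 endothelial markers were negative, 2 of them, Pecam1 and Emcn, past DESeq2's threshold (adjusted p = 0.0338 and 0.0158) and 0 past edgeR's. For Cdh5 the log2 fold change was -0.11 (SE 0.73), and its highest value, 184 CPM, was in Arf6Q67L tumour 1. Endothelial sums ran from 55.5 to 239 CPM in Arf6Q67L tumours and from 98.3 to 257 CPM in controls. Sums of 4 skeletal muscle markers ran from 9.61 to 497 CPM in Arf6Q67L tumours and were 21.5, 0.723, 0.670 and 743 CPM in controls 1 to 4. Fibroblast sums, over 4 markers, were highest in Arf6Q67L tumour 3 (2580 CPM), which had the lowest mitotic mean. Of these markers only Dcn (958 CPM) was itself highest there. Pdgfra (1239 CPM), Col1a1 (350 CPM) and Lum (32.7 CPM) were exceeded in other tumours, by up to 1331, 1011 and 82.6 CPM. The part of these cells in the class levels was not tested.

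Genes of the same machinery outside the 40 gave a similar picture. Of 39 other G2/M genes 27 were positive and 12 negative between genotypes (median log2 fold change 0.04). Of 32 other S-phase genes 7 were positive and 25 negative (median -0.11), where 49.7% of all genes were positive. In edgeR and in DESeq2 0 genes of either list passed the test, and at an unadjusted edgeR p under 0.05 there were 1 higher and 1 lower S-phase gene and 0 higher and 1 lower G2/M gene, where 4.65% of all genes were higher and 7.05% lower. By tumour, the mean log2 CPM of the other G2/M genes was also lowest in Arf6Q67L tumour 3 (5.33) and highest in tumour 6 (6.14), followed by control 4 (6.02). The other S-phase genes were lowest in tumour 3 (4.24) and highest in control 4 (4.75).

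Single genes of these lists had lower p-values than any member, though none passed. E2f8, an E2F that represses transcription, had a log2 fold change of 0.54 (SE 0.21, edgeR adjusted p = 0.376). Psrc1, a microtubule-binding protein of the spindle, ran from 2.04 to 8.92 CPM in Arf6Q67L tumours, with a median of 5.84 CPM, and had 5.15, 22.9, 16.4 and 16.5 CPM in controls. For Psrc1 the log2 fold change was -1.42 (SE 0.43, edgeR adjusted p = 0.299, DESeq2 adjusted p = 0.0573). Control 1 lay among the Arf6Q67L tumours and the other 3 controls above all of them.

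Of 28 further origin and fork genes 13 were positive and 15 negative (median -0.02). Dut, whose product keeps uracil out of DNA, ran from 59.7 to 132 CPM in Arf6Q67L tumours, with a median of 77.6 CPM, and had 176, 148, 160.3 and 92.02 CPM in controls (log2 fold change -0.76, SE 0.26, edgeR adjusted p = 0.341). Controls 1, 2 and 3 were above every Arf6Q67L tumour and control 4 was not. Orc2, a subunit of the origin recognition complex, was above all controls in 6 of 6 Arf6Q67L tumours, at 38.7 to 45.96 CPM against 32.4 to 37.1 CPM (0.22, SE 0.08, edgeR adjusted p = 0.365). It was 1 of the 28 genes of its list with separate groups, where 1.15% of all genes were higher without overlap and 2.44% were separate in either direction.

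Of the remaining lists, condensin and cohesin genes had a median of 0.02 (9 of 15 positive), kinetochore genes -0.04 (7 of 20), the anaphase-promoting complex 0.05 (9 of 15) and other E2F and RB-DREAM genes 0.06 (10 of 15), with 0 genes past edgeR's and DESeq2's adjusted thresholds in each. Cenpm, which encodes a centromere protein, ran from 1.63 to 4.12 CPM in Arf6Q67L tumours, with a median of 3.15 CPM, and had 2.97, 5.12, 3.98 and 7.31 CPM in controls. The groups overlapped, and its difference of -0.71 (log2, SE 0.35, edgeR adjusted p = 0.468) moved to -0.43 without control 4. E2f6 (0.25, SE 0.09) and the E2F partner Tfdp2 (0.30, SE 0.13) had unadjusted p-values of 0.0245 and 0.0483 and edgeR adjusted p-values of 0.368 and 0.424.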

How the data were processed

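Polyadenylated RNA of 10 tumours was sequenced from Illumina TruSeq Stranded libraries, per the labels' protocols. The values are raw read counts per Ensembl gene, as deposited by the authors in a single table. The submitters' processing notes list STAR 2.5.2b, featureCounts 1.5.1 and DESeq2 1.18.0, with GRCm38 as genome build, and say nothing of which did what. How featureCounts handled strand or multiply mapped reads is not given in the sources used here, so members with pseudogenes or overlapping genes are counted less surely. Each of the 10 columns carries the library identifier of 1 sample. Libraries 1 to 6 are Arf6Q67L and 9 to 12 are control, so the order of the libraries cannot be told apart from genotype. Tumours were numbered in accession order. Every pair of tumours within a group differed beyond sampling noise (lowest chi-square 77.9 per gene), and each was 1 sample.

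Symbols, positions and summed exon lengths came from GENCODE M21 (GRCm38), which matched 99.7% of identifiers. The test was edgeR's (version 4.0.16, R 4.3.3) on the 17286 genes that filterByExpr retained at minimum count 10 (TMM, robust glmQLFit, glmQLFTest, Benjamini-Hochberg over all genes kept, threshold 0.05). The SE is the fold change over the root of F. Log2 CPM used a prior count of 2. Alternatives were DESeq2 1.42.0, limma 3.58.1 (voom with quality weights), RLE factors, no filter, a sex term, narrower classes and leaving out each tumour. Simulated counts with known changes served to test the edgeR script. The members and lists were chosen with earlier results of these data known. Values by tumour (in groups of 6, mostly as lowest, median and highest) are given for the 6 members of lowest unadjusted p in each class and for Mki67, Top2a, Pcna, Mcm2, Ccnb1, Cdk1, Ccne1, E2f1, Foxm1 and Mybl2, and up to 3 genes of lowest p were eligible in each further list. E2f2, Ccnb2 and the members named as extremes were singled out after their values were seen, as were the promoters shown.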

Additional observations from a re-analysis of the deposited data

Results flagged for a closer look

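Among 128 groups of values examined (each named gene and class level in each genotype), 11 held a tumour whose gap to its nearest neighbour took an unusually large part of the group's range by Dixon's 95% limit, and chance gives about 1 in 20. Control 4 accounted for 7 of the 11. It had 67.1 CPM of Rrm2 against 46.7 CPM in the next control, 27.2 CPM of Gmnn against 16.7 CPM, 59.6 CPM of Ccnb2 against 40.7 CPM, 60.2 CPM of Birc5 against 39.99 CPM and 42.9 CPM of Pold3 against 36.6 CPM. Its Tfdp2 level was low, 27.5 CPM against 37.0 CPM, and its mitotic class mean was 6.17 log2 CPM against 5.66 in the next control.

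The other 4 were spread over tumours. Arf6Q67L tumour 4 had 27.3 CPM of Ccne1 against 18.2 CPM in the next tumour of its group, and Arf6Q67L tumour 3 had 7.18 CPM of Mybl2 against 13.3 CPM. Control 3 had 10.04 CPM of Ccne2 against 15.5 CPM, and control 2 had 13.4 CPM of E2f2 against 9.43 CPM.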

How the results depend on the processing

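The count of 0 members past the threshold held under all 15 alternative fits. Over all genes, 0 higher and 0 lower calls in edgeR became 167 higher and 246 lower with DESeq2, and 1 and 1 with limma-voom, and over the leave-one-out fits the higher calls ranged from 0 to 1, the 1 without control 1. Of 36 single genes followed, 33 kept their direction and stayed above the threshold in every alternative. Cdk1 turned from -0.04 to 0.0055 with limma-voom and to 0.026 with sex as a term, and ranged from -0.20 to 0.082 over the tumours left out. Mki67 ranged from -0.34 to 0.11 and Top2a from -0.29 to 0.037, each positive only without control 4. The S-phase median ranged from -0.07 to 0.03, the mitotic median from -0.02 to 0.26 and the difference of the classes between genotypes from -0.16 to 0.01 over the tumours left out. With limma-voom the S-phase median was 0.03, and the cause was not tested. The narrower classes held 11 S-phase and 15 mitotic genes, and the mitotic median was then 0.02. Of these 15 mitotic genes 10 were positive and 5 negative. Their highest log2 fold change was 0.18, so Bub1b, Ccnb1 and Foxm1, which had higher values, were not among them. No paired analysis was possible because the labels give the tumours no shared replicate numbers. With 6 and 4 tumours, intervals stayed within -0.5 to 0.5 for 13 of 40 members, and those of the other members reach past these bounds.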

Other observations

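E2f8 ran against the mitotic class in the tumours at the ends of that class, but not in every tumour. It had 126, 95.4, 117, 83.6, 72.1 and 61.7 CPM in Arf6Q67L tumours 1 to 6 and 74.1, 70.1, 58.7 and 52.7 CPM in controls 1 to 4. Its lowest value in each genotype was in the tumour with the highest mitotic mean of that genotype, Arf6Q67L tumour 6 and control 4. In Arf6Q67L tumour 3, where all 21 mitotic members were at their lowest, E2f8 was the second highest of the 10 tumours. Uhrf1, which directs maintenance methylation of newly copied DNA, had its lowest value (53.03 CPM) in Arf6Q67L tumour 3 and its highest (88.4 CPM) in tumour 6. These genes were singled out after their values were seen.

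Cdc20, which activates the anaphase-promoting complex, departed from the other mitotic members in control 1. It stood there at 87.6 CPM, the highest of all tumours, while that tumour's mitotic mean was 5.61, the eighth of 10.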
